A study of Drosophila melanogaster with 3 samples.

Results

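Insulator proteins bind DNA, or bind other proteins that do, at the borders of chromatin domains and at many gene starts. They limit which enhancers can act on which promoters, and in the fly several of them meet on the shared cofactor Cp190. The 10 genes described here encode DNA-binding proteins with zinc fingers or BED fingers (CTCF, su(Hw), Ibf1, Ibf2, pita, ZIPIC and dwg), the GAGA factor (Trl) and the BTB-domain cofactors Cp190 and mod(mdg4). They were taken by name from the 13968 protein-coding genes of the Ensembl annotation.

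The data are a ChIP-seq experiment on the protein CG4617 in whole Drosophila melanogaster embryos of 0 to 24 hours, from both sexes pooled. The flies carried a transgene that fuses GFP to the C terminus of CG4617, and chromatin was precipitated with an antibody to GFP. There was 1 group, with 3 biological replicates and 1 technical replicate of each, so no comparison between conditions exists. Binding is that of the tagged protein averaged over all cells of the embryo, and the labels name no driver or cell type for the transgene.

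The values are the regions that the authors listed, each with a summit (the base of highest enrichment) and a signal, on a scale that none of the sources at hand state. The thresholded list, derived by the irreproducible discovery rate procedure, held 5558 peaks with signals of 129 to 2038 and a median of 219. The pooled list, made from all replicates together, held 20051 regions. The lists of replicates 1, 2 and 3 held 30000, 17251 and 14368 regions, background regions included. Signal was used only to rank regions within a list, and rank 1 is the strongest. A promoter peak has its summit within 500 bp of an annotated transcription start of the gene. Positions are in dm6, counted from 1.

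Bases are printed for the peaks that carry what follows. The first set is 30 bases around the letters TATCGATA, the core of the DNA replication-related element, shown because it lies within 100 bp of a promoter summit at 4 members. Each line is read 5′ to 3′ along the gene, which is the minus strand in all of them, and the capitals mark the core.
CTCF, chr3L:7356716-7356745: accaatcgaacTATCGATAgctggcggtac
Cp190, chr3R:15275227-15275256: tatcgcatggcTATCGATAgctgccgagcg
mod(mdg4), chr3R:21377437-21377466: atattttaagcTATCGATAtattgtcactt
Ibf2, chr3R:9258490-9258519: cgatggcatgtTATCGATAcatcggttgaa
The core ended 14 bp upstream of the start in CTCF and 47 bp upstream in mod(mdg4). It crossed the start in Cp190, and its last base was the first transcribed base in Ibf2.

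The next set comes from inside mod(mdg4), at 2 of its internal peaks, and are shown because both hold the letters GTTGCCA and AGGGCTG, in capitals. The longer one, chr3R:21365489-21365608 on the minus strand, is the whole gap between 2 annotated starts that face away from each other. The shorter one, chr3R:21373570-21373598 on the plus strand, runs from the first set of letters to the last.
mod(mdg4), gap between starts: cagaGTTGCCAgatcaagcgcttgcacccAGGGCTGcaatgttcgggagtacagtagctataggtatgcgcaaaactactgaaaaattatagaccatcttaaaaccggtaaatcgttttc
mod(mdg4), start of N, O and AA: GTTGCCAcacagccgaagcaccAGGGCTG
The last one is the strongest peak of any member, in an intron of 1 of the 10 Trl transcripts. It covers 50 bases on either side of the summit, chr3L:14759454-14759554, on the minus strand along the gene. The capitals mark TATAAA, the letters of the TATA box, which were the only match among the 9 motifs searched.
Trl, intronic peak: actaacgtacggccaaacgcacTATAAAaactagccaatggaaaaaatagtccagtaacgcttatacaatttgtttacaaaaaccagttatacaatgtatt
The letters are those of the reference genome, Release 6, as given by RefSeq, and not of the embryos.

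Of the 10 insulator protein genes, 9 had a thresholded promoter peak, against 37.1% of protein-coding genes. The exception was Ibf1. In the pooled list all 10 had a promoter region, against 52.6% of protein-coding genes. The replicate lists gave 10 members in replicate 1 (background 59.2%), 9 in replicate 2 (50.2%) and 9 in replicate 3 (44.6%). Ibf1 was the member missing from replicate 2 and ZIPIC the one missing from replicate 3. The members' count was above the share of all genes in each list, and these lists are not independent of each other.

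The median signal of the strongest promoter peak was 276 over the 9 members that had one, at a median rank of 1740. Over all 5179 genes with such a peak the median signal was 253 and the median rank 2099. The members spread over most of the list, and the ranks of their strongest promoter peaks ran from 93 at Cp190 to 5060 at Ibf2. In falling order of signal they were Cp190 (700), CTCF (479), su(Hw) (426), ZIPIC (357), pita (276), mod(mdg4) (265), dwg (232), Trl (224) and Ibf2 (141). Neighbours in that order often changed places between replicates: su(Hw) stood at place 2 among the members in replicate 2 and at place 4 in replicates 1 and 3, whereas Cp190 stood at place 1 in all of them.

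**Figure D1:**
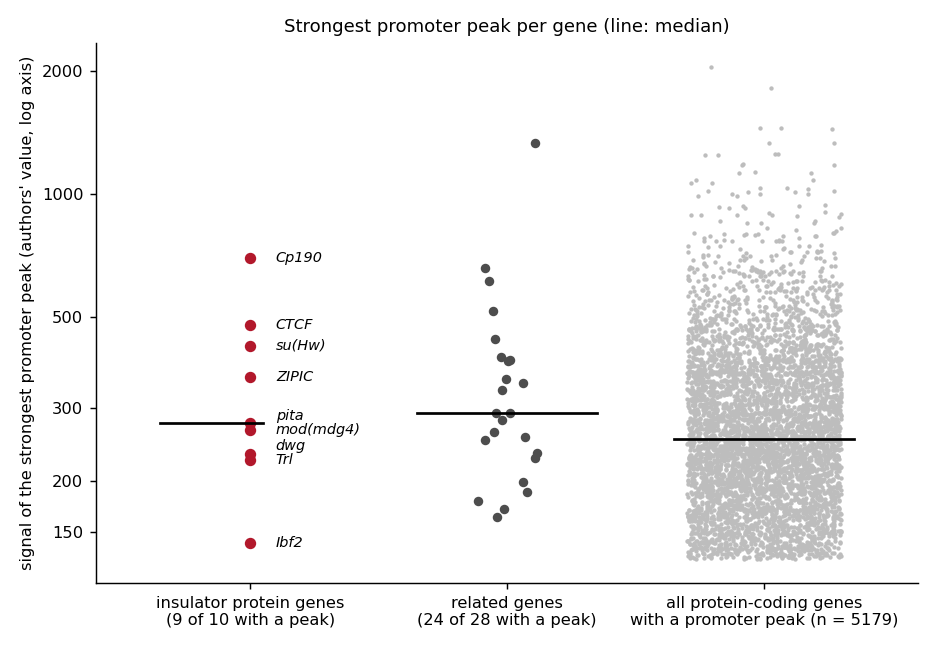
Signal of the strongest thresholded promoter peak per gene (authors' value, log axis) for the insulator protein genes, the related genes and all protein-coding genes that have one. Each point is a gene and each line a median. The members lie between 141 and 700, within the range of all genes.

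Counting every peak at a start or in the gene body, the members held 20 thresholded summits, and 13 of them were above the list's median signal. Of the 20, 12 were promoter peaks, and their distances to the nearest own start ran from 20 to 266 bp with a median of 81 bp. Downstream of the start lay 9 of these 12 and upstream 3. Neither the distances nor the sides are set beside those of all promoter peaks here, so they are not read as a trait of the members. The other 8 of the 20 summits lay farther from any own start, 4 in mod(mdg4), 3 in Trl and 1 in pita. CTCF, Cp190 and pita had 2 promoter peaks each, and 8.15% of protein-coding genes had 2 or more. mod(mdg4), Trl and pita each had at least 3 summits at a start or in the body, against 1.64% of protein-coding genes.

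The replicates gave the only spread between samples. For each summit the signal of the replicate region that holds it was expressed as a percentile among the same replicate's values at all thresholded summits, where 100 is the strongest. A region in all 3 replicates was found at 18 of the 20 member summits, and 87.5% of all thresholded summits had one. The other 2 summits, those of ZIPIC and of the downstream pita start, had one in replicates 1 and 2. The median SD of the percentile over replicates was 15.7 points for the member summits, against 15.3 points over all summits held in 3 replicates. The member summits thus varied between replicates about as much as other peaks.

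**Figure D2:**
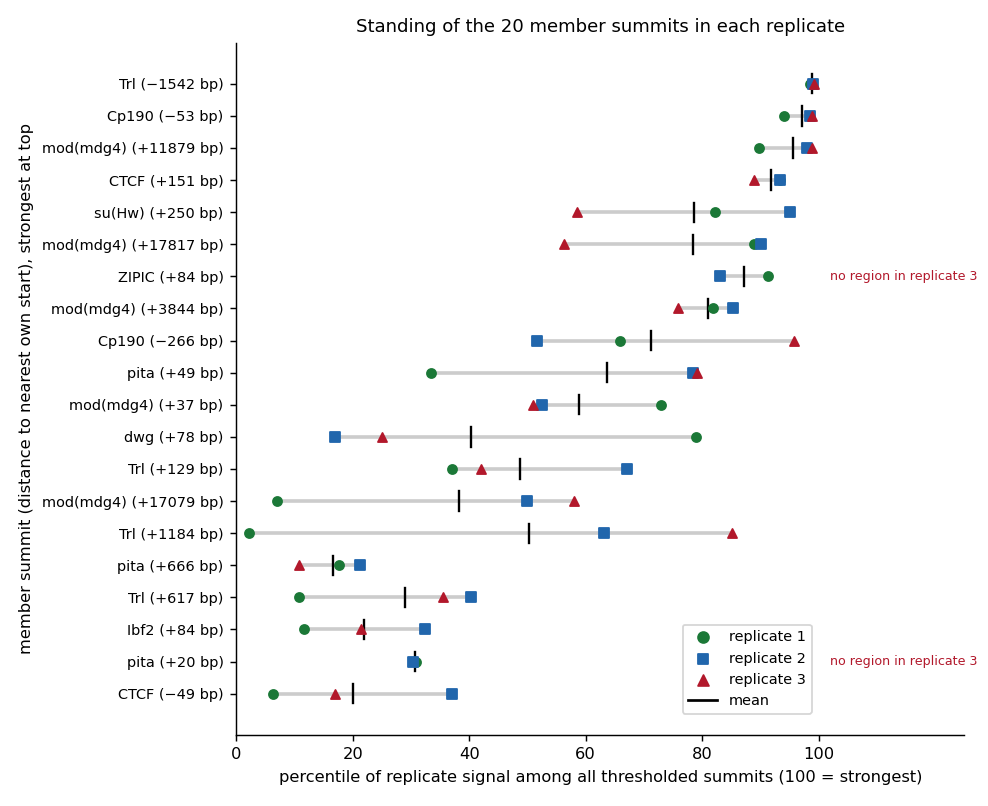
Percentile of each member summit in replicates 1, 2 and 3 (x axis, 100 is the strongest of all thresholded summits), with the strongest summit at the top. The black tick is the mean, and the number beside a gene is the distance of the summit from its nearest own start (positive is downstream). The Trl peak 1542 bp from a start stays near the top in every replicate, and the Trl peak at 1184 bp ranges from 2.28 to 85.1.

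Cp190 is the cofactor that most DNA-binding insulator proteins of the fly recruit. It had the strongest promoter peak of the members. The summit, at chr3R:15275294, lay 53 bp upstream of the start, with a signal of 700 at rank 93. Its replicate signals were 199 in replicate 1 (rank 334), 273 in replicate 2 (rank 89) and 220 in replicate 3 (rank 65). The peak stood near the top of each replicate, and the mean percentile was 97.1 ± 2.63 (SD, n = 3).

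Cp190 also had a second summit, 266 bp upstream, with a signal of 325 at rank 1201. Its regions had signals of 110 in replicate 1 (rank 1980), 86.1 in replicate 2 (rank 2716) and 142 in replicate 3 (rank 232). Replicate 3 was the highest and the percentile was 71.1 ± 22.5 (SD, n = 3), a wider spread than at the first summit. Cp190 shares its start region with CG4338, a gene on the other strand whose start is 281 bp away. The second summit lay 15 bp from the CG4338 start and the first 228 bp from it, so neither peak can be given to one gene alone.

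CTCF encodes the zinc-finger insulator protein that flies share with mammals. Its main summit lay 151 bp downstream of the start, in the intron, at chr3L:7356562, where an antisense noncoding RNA gene, asRNA:CR45822, also has an exon. The signal was 479 at rank 327. The replicate signals were 193 in replicate 1 (rank 375), 182 in replicate 2 (rank 373) and 101 in replicate 3 (rank 602). The peak stood high in every replicate, at a percentile of 91.9 ± 2.56 (SD, n = 3).

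A weaker CTCF summit lay 49 bp upstream of the start, 31 bp from the middle of the TATCGATA core printed above. Its signal was 132 at rank 5410, near the bottom of the thresholded list. The replicates had signals of 36.5 in replicate 1 (rank 8096), 72.5 in replicate 2 (rank 3578) and 26.0 in replicate 3 (rank 7045). It was the weakest of the 20 member summits. Annotated copies of the transposable element Quasimodo lie 143 and 190 bp upstream of the CTCF start in the reference genome. The sources at hand do not state how reads from repeats were handled.

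The zinc-finger protein encoded by su(Hw) binds the insulator of the gypsy retrotransposon. The gene had a single thresholded peak, with a summit 250 bp downstream of the start at chr3R:14308339, in the 5′ UTR of 2 of its 3 transcripts. The signal was 426 at rank 508. The regions holding the summit had signals of 143 in replicate 1 (rank 1018), 196 in replicate 2 (rank 276) and 56.5 in replicate 3 (rank 2306). Replicate 3 was the lowest, and the percentile was 78.5 ± 18.6 (SD, n = 3). In replicate 1 the enrichment was split, with a second region of signal 172 (rank 576) whose summit lay 370 bp downstream. The start of Polr2I, which encodes an RNA polymerase II subunit, is 500 bp from that of su(Hw) on the other strand and 750 bp from the summit.

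mod(mdg4) encodes many BTB-domain proteins that share their first exons and differ in their last ones, which are joined by trans-splicing from separate precursor transcripts. The annotation lists these precursors as 23 further protein-coding genes, the pre-mod(mdg4) units, and they lie inside the 26556 bp of mod(mdg4) on both strands. mod(mdg4) had 5 thresholded summits, a number that 19 protein-coding genes reached or passed. Of the 770 genes longer than mod(mdg4), 13 had as many.

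The peak at the start of mod(mdg4) itself, 37 bp downstream, had a signal of 265 at rank 1895. Its replicate signals were 122 in replicate 1 (rank 1553), 87.0 in replicate 2 (rank 2673) and 51.2 in replicate 3 (rank 2749), and the percentile was 58.8 ± 12.3 (SD, n = 3). It was the second weakest of the 5. The strongest lay 11879 bp downstream, at chr3R:21365522, with a signal of 632 at rank 133. It had signals of 171 in replicate 1 (rank 582), 258 in replicate 2 (rank 109) and 218 in replicate 3 (rank 67). The percentile was 95.5 ± 5.06 (SD, n = 3), and in each replicate it was above that of the peak at the gene's own start. A strongest summit in the body is common. Of 338 genes with a promoter peak and a summit farther in the body, 142 had it there, 42.0%. Among the members it was 2 of 3, mod(mdg4) and Trl.

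Most thresholded peaks, 4532 of 5558, had a summit within 500 bp of a protein-coding start, with the pre-mod(mdg4) units counted among these genes. Each of the 4 internal mod(mdg4) summits likewise lay at an annotated start of pre-mod(mdg4) units. The strongest lay in the 120 bp gap printed above, 34 bp from the start of unit E, 87 bp from the common start of units U, V, W, X, Y, AD and AE on the other strand, and 232 bp from that of units AB, C and E. The summit at 3844 bp downstream, with a signal of 353 at rank 959, was 18 bp from the start of units N, O and AA. The summit at 17817 bp, with a signal of 366 at rank 856, was 184 bp from the start of units B, G, H, I, J, K, L and P. The summit at 17079 bp, with a signal of 185 at rank 3654, was 146 bp from the start of units T and Z on the other strand.

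The pre-mod(mdg4) units have 7 distinct annotated starts, of which 6 had a thresholded summit within 500 bp. The exception was a second start of units U and V, 9272 bp downstream of the mod(mdg4) start, which had no region within 500 bp in the pooled or in any replicate list. The 6 starts are not separate peaks. Those at 11792, 11913 and 12111 bp share the strongest summit, so the 6 rest on the 4 internal summits. The RefSeq annotation draws mod(mdg4) as 5 pieces, and these start 37, 34, 87, 146 and 184 bp from the nearest thresholded summit. The summit at 3844 bp is the one with no RefSeq piece starting beside it. The units enter the count of protein-coding genes, and without them 37.0% of the other genes had a promoter peak.

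**Figure D3:**
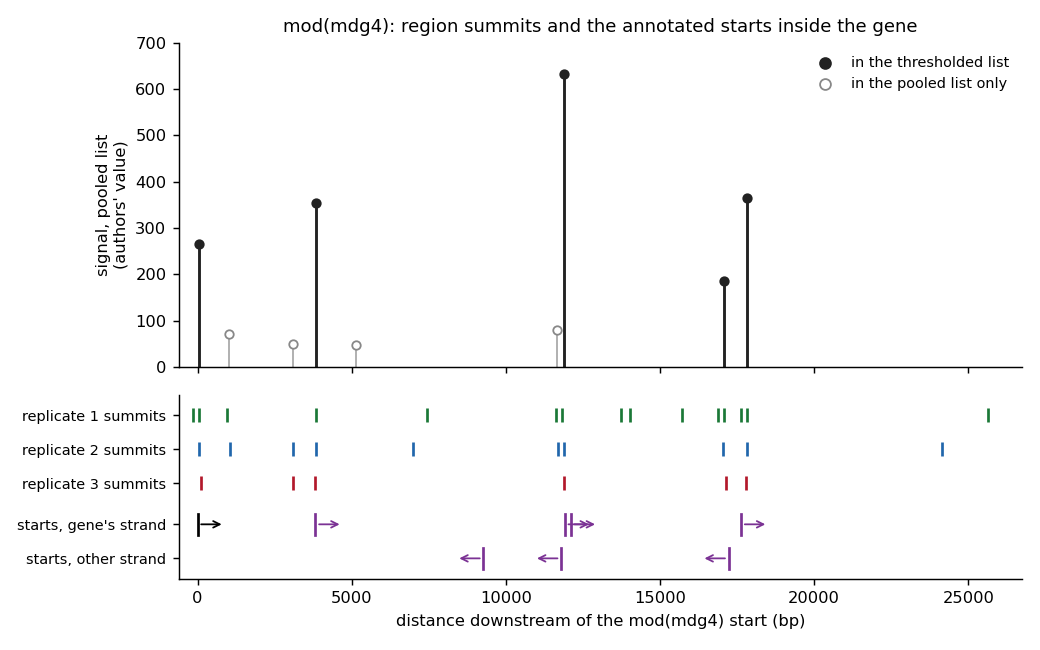
Summits along mod(mdg4), by distance downstream of its start (bp). Stems give the signal in the pooled list, filled where the region is also in the thresholded list. Coloured ticks are the summits of replicates 1, 2 and 3, and arrows mark annotated starts of mod(mdg4) (black) and of the pre-mod(mdg4) units (purple). The 5 filled stems, of 185 to 632, stand at starts, and the start at 9272 bp has none.

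The other internal mod(mdg4) summits differed in how even they were over replicates. The summit at 3844 bp had signals of 142, 143 and 74.6 in replicates 1, 2 and 3, at a percentile of 81.0 ± 4.85 (SD, n = 3). The summit at 17817 bp had signals of 168, 162 and 54.8 in replicates 1, 2 and 3, at a percentile of 78.4 ± 19.2. The summit at 17079 bp had signals of 38.3, 84.5 and 56.1 in replicates 1, 2 and 3, at a percentile of 38.3 ± 27.4. The first of these was high in all replicates, the second was lower in replicate 3, and the last was low in replicate 1.

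GTTGCCA and AGGGCTG, the letters in capitals in the mod(mdg4) sequences, were among the 12 words of 7 letters that stood out most at the 500 strongest peaks beside windows 500 bp to each side, and they were looked for at the members after that count was seen. GTTGCCA lay within 50 bp of 38 of those 500 summits and AGGGCTG within 50 bp of 26. Within 100 bp of a summit, on either strand, GTTGCCA lay at 8.94% of all thresholded promoter peaks and AGGGCTG at 4.55%. Both lay together at 31 of the 4532 thresholded promoter peaks, 0.684%. Over all 5558 thresholded peaks the count was the same 31, 0.558%. In 11 of these GTTGCCA was followed on the same strand by AGGGCTG with at most 30 bases between them, and 2 of the 11 were the mod(mdg4) summits at 11879 and 3844 bp. The words were 18 bases apart at the first and 15 bases apart at the second. The other 18 member summits did not hold the pair, although the main CTCF summit held GTTGCCA. That CTCF summit, at rank 327, was among the 500 and held the word within 50 bp, so it entered the count. The mod(mdg4) summit at 11879 bp, at rank 133, was among the 500 too, with both words beyond 50 bp. The pair and its limit of 30 bases were set after the data were seen, so these matches are a description only.

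Trl encodes the GAGA factor, which binds GA repeats at promoters and at domain boundaries. It had 4 thresholded summits. The strongest, at chr3L:14759504, lay in an intron of 1 of the 10 Trl transcripts. It was 1542 bp upstream of the nearest Trl start, which 7 transcripts use. The signal there was 830 at rank 47. The replicate signals were 271 in replicate 1 (rank 80), 315 in replicate 2 (rank 58) and 239 in replicate 3 (rank 49). The percentile was 98.9 ± 0.280 (SD, n = 3), the highest mean and the smallest spread of the 20 member summits. Among the 1026 thresholded summits farther than 500 bp from any protein-coding start it stood 12th.

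The promoter peak of Trl was weaker. It lay 129 bp downstream of the most downstream of the 4 Trl starts, which 1 of the 10 transcripts uses. No other Trl start, that of 7 transcripts included, had a thresholded summit within 500 bp. The promoter peak had a signal of 224 at rank 2658. Its replicate signals were 74.8 in replicate 1, 105 in replicate 2 and 44.4 in replicate 3. The overlapping gene CG42507 has this position in its 5′ UTR too. The most upstream Trl start, which shares its region with Mgat4a 979 bp away, had no thresholded summit within 500 bp and 1 at 617 bp, of signal 142 at rank 5011. That summit had signals of 44.7, 75.3 and 40.7 in replicates 1, 2 and 3, low in each.

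The remaining Trl summit lay 1184 bp downstream of the nearest start, in an intron, with a signal of 168 at rank 4137. It had signals of 100 in replicate 2 (rank 2053) and 91.1 in replicate 3 (rank 805). In replicate 1 the region that reaches it had a signal of 13.1 (rank 24373) and its own summit 174 bp away. Its percentile of 50.2 ± 42.9 (SD, n = 3) was the widest spread of any member summit. GAGAG, the core of the motif that the Trl protein itself binds, lay within 100 bp of none of the 4 Trl summits and of 18.5% of all promoter peaks, and no more can be read from its absence in these windows.

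**Figure D4:**
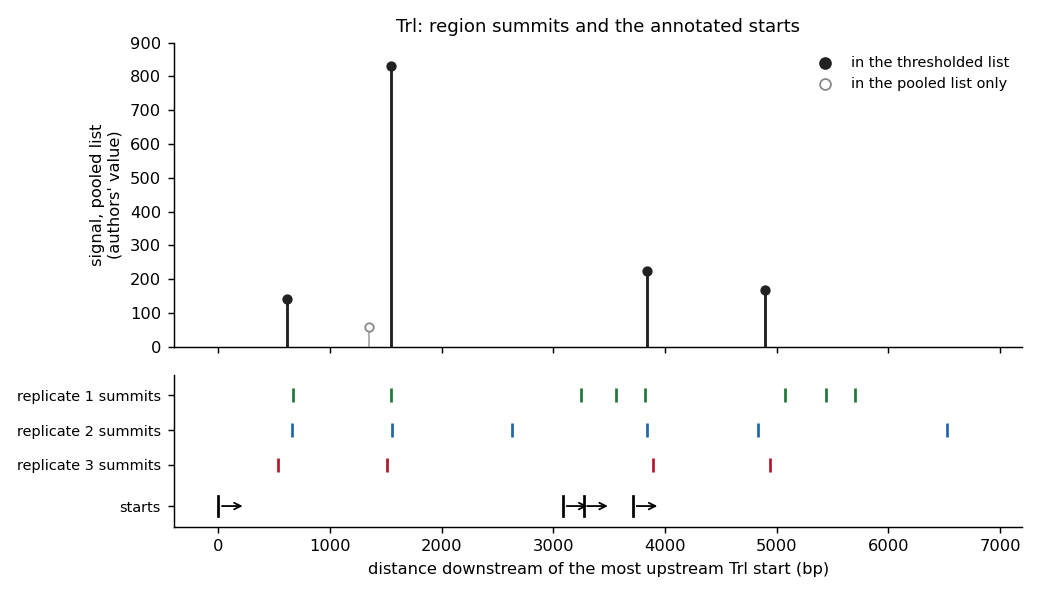
Summits along Trl, by distance downstream of its most upstream start (bp). Stems give the signal in the pooled list, filled where the region is also in the thresholded list, coloured ticks are the summits of replicates 1, 2 and 3, and arrows mark the 4 annotated starts. The tallest stem, 830, stands between the first start and the other starts and has a tick in every replicate.

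Ibf1 and Ibf2 encode BED-finger proteins that bind DNA together and recruit Cp190. Their genes lie head to head, with starts 463 bp apart. Ibf2 had a thresholded summit 84 bp downstream of its start, in coding sequence, at chr3R:9258417, with a signal of 141 at rank 5060. Its replicate signals were 46.3 in replicate 1 (rank 6516), 68.1 in replicate 2 (rank 3871) and 29.8 in replicate 3 (rank 5783). It was low in every replicate, at a percentile of 21.9 ± 10.4 (SD, n = 3).

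Ibf1 had no thresholded peak, and the Ibf2 summit was 547 bp from its start. In the pooled list Ibf1 had a region 123 bp downstream of its start with a signal of 70.7 at rank 9980, below the lowest thresholded signal of 129. Replicate 1 had a region there with a signal of 45.4 (rank 6616) and replicate 3 one with 19.4 (rank 12356). Replicate 2 had none within 500 bp, and its nearest one in the gene lay 808 bp downstream with a signal of 22.9 (rank 16318). On the Ibf2 side of the shared start region there was thus a region in all replicates, and on the Ibf1 side in replicates 1 and 3.

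pita encodes a zinc-finger protein that recruits Cp190, among other places at boundaries of the bithorax complex. It had 3 thresholded summits and 2 starts. At the upstream start the summit lay 49 bp downstream, with a signal of 276 at rank 1740. The replicate signals were 71.4 in replicate 1 (rank 4069), 126 in replicate 2 (rank 1207) and 79.6 in replicate 3 (rank 1130). Replicate 1 was the lowest, and the percentile was 63.7 ± 26.2 (SD, n = 3).

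The summit at the downstream pita start, 20 bp from it, had a signal of 133 at rank 5354, with regions of 68.7 in replicate 1 and 66.3 in replicate 2 and no region in replicate 3. It lay 218 bp from the start of Dcp-1, which encodes an effector caspase on the other strand, and in the 5′ UTR of that gene as well. Another pita summit, in an intron 666 bp from the upstream start, had a signal of 143 at rank 4976. Its replicate signals were 53.7, 58.4 and 19.5 in replicates 1, 2 and 3, and it had the lowest mean percentile of the member summits, 16.6 ± 5.29 (SD, n = 3).

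ZIPIC encodes another zinc-finger protein that recruits Cp190. Its summit, in coding sequence 84 bp downstream of the start at chr3R:30036786, had a signal of 357 at rank 935. The replicate signals were 179 in replicate 1 (rank 494) and 136 in replicate 2 (rank 950), and replicate 3 had no region there. The nearest summit of replicate 3 was 2934 bp away. Of the 935 thresholded peaks at least as strong as this one, 16 had no region in replicate 3, 1.71%, against 9.54% of all thresholded peaks. The ZIPIC peak was therefore supported by replicates 1 and 2, and its absence from replicate 3 was uncommon for a peak of its strength.

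dwg encodes the zinc-finger protein Zw5, which binds the scs insulator of a heat shock locus. Its summit, in the 5′ UTR 78 bp downstream of the start at chrX:2727776, had a signal of 232 at rank 2491. The replicate signals were 135 in replicate 1 (rank 1207), 54.9 in replicate 2 (rank 5046) and 32.7 in replicate 3 (rank 5125). Replicate 1 stood well above the others, and the percentile was 40.3 ± 33.7 (SD, n = 3).

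**Figure D5:**
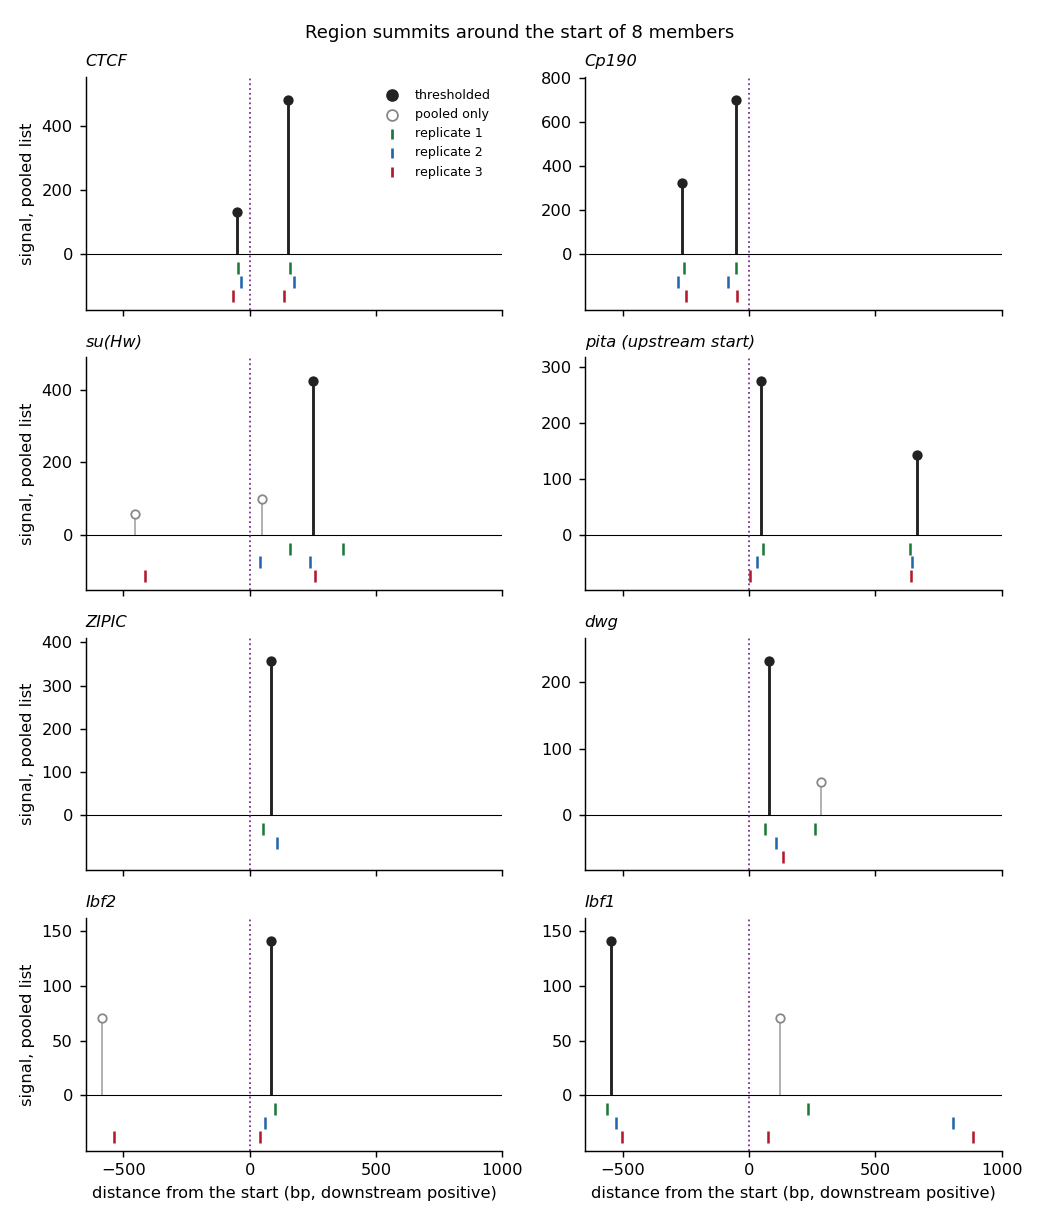
Summits around the start of 8 members, by distance from the start (bp, downstream positive, dotted line at the start). Stems give the signal in the pooled list (authors' value, own axis per gene), filled where the region is also in the thresholded list, and coloured ticks are the summits of replicates 1, 2 and 3. Regions within 500 bp of an own start or in the gene body are drawn, and for Ibf1 and Ibf2 those of both genes. ZIPIC has ticks of replicates 1 and 2, and Ibf1 has an open stem of 70.7 downstream of its start.

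A start region shared with a gene on the other strand, within 1000 bp upstream, was found at 5 of the 10 members (Cp190, su(Hw), Trl, Ibf1 and Ibf2), against 36.2% of protein-coding genes. Of these 5 members 4 had a promoter peak at any of their starts, against 66.4% of protein-coding genes with a shared start. The Trl peak was at another of its starts, and the start that Trl shares had no thresholded summit within 500 bp. The 5 members without one (CTCF, mod(mdg4), pita, ZIPIC and dwg) all had a promoter peak, against 20.5% of protein-coding genes without a shared start. The first count is close to its share, and Ibf1 and Ibf2 enter it with the same start region.

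The 9 motifs were searched on both strands within 100 bp of the summits. TATCGATA was found at 4 of the 12 promoter summits, against 9.25% of all thresholded promoter peaks. Within 50 bp of the summits it was at 1 of the 12, in CTCF, against 5.05% of promoter peaks, so the count rests on the wider window. CGATA, which the insulator protein BEAF-32 binds and which is part of TATCGATA, was found at 8 of the 12, in 7 members, against 41.1% of promoter peaks. The 4 summits with TATCGATA are among these 8. Within 50 bp CGATA was at 4 of the 12, against 24.6% of promoter peaks, so this count too rests on the wider window. The TATA letters TATAAA were at 2 of the 12 promoter summits, against 24.0% of promoter peaks, and at 4 of all 20 member summits. The initiator letters TCAGT were at 2 of the 12, against 29.5%, and at 3 of all 20.

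The other motifs were at few members. CAGCTG, an E-box, was at 2 of the 12 promoter summits (15.3% of promoter peaks) and at 3 of all 20 summits, in CTCF and pita. GAGAG was at 1 promoter summit, in pita (18.5%). GGTCACAC, the core of the promoter element motif 1, was at 1 promoter summit, in ZIPIC (10.7%). TGCATA, the core of the su(Hw) protein's own site, was at none of the promoter summits (10.5%), that of su(Hw) included, and at 2 internal mod(mdg4) summits. CAGGTAG, the site of Zelda, was at none, and 0.816% of promoter peaks had it. A match is a description of the letters and shows no binding.

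A list of 28 further genes whose products work with the members or form loops was looked at too. The list was chosen with earlier results of these data known, so it is no independent check. Of the 28 genes, 24 had a promoter peak, against the same 37.1% of protein-coding genes. The median signal of their strongest promoter peaks was 292, with a range of 163 to 1333. The strongest was at Chro, a chromodomain protein of interbands (1333, rank 7), followed by pds5, a cohesin regulator (658, rank 108), and Cap-H2, a condensin II subunit (612, rank 146). Chro and no other of these passed the 700 of Cp190. The 4 genes without a promoter peak were insv, Elba1, Elba2 and Elba3. insv and the Elba genes encode a BEN-domain protein and the subunits of a complex that bind boundary DNA. Of the 4, insv had a region in the pooled list, and the Elba genes had none in any list.

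CG4617, the gene of the tagged protein, had a promoter peak 21 bp from its start, with a signal of 289 at rank 1569. That lies between the values of pita and ZIPIC, and 4 members had stronger promoter peaks. The strongest promoter peak of the gene CG8300 had the same signal, 289.003. It may be the same peak, which is therefore not given to CG4617 alone.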

How the data were processed

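Per the submitters' listing, the authors called regions in every library against 1 control alignment, did the same on the libraries pooled, and took thresholded peaks from both by the irreproducible discovery rate procedure. The deposited signal was used as it stands. Aligner, peak caller, threshold and read depth: not given in the sources used here. Depth being unknown, single values carry no interval. Each replicate has a biosample of its own, per the labels. All 5558 thresholded entries are also in the pooled list.

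Starts came from Ensembl release 115 on the main chromosome arms. A replicate value at a summit is the signal of the region that holds it, taking the one with the nearest summit. Members and lists were chosen with earlier results of these data known. Named genes are the members, protein-coding genes starting within 500 bp of their summits, the 3 strongest related genes, those without a peak, and CG4617. Polr2I, Mgat4a, CG42507 and asRNA:CR45822 were named after their positions were seen, and CG8300 after its signal was seen. SA and Mtor were matched as SA1 and Mgtor through RefSeq synonyms. No test was run, because there is 1 group. Counts stand beside the share of all genes. The lookups were tested on simulated summits. Python 3.11.15, pandas 2.3.3 and numpy 2.4.6 were used. The pairs of 7-letter words and the background without pre-mod(mdg4) units were added after the data were seen.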

Additional observations from a re-analysis of the deposited data

How the results depend on the processing

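The count of members with a promoter peak, 9, was 9 with a window of 250 bp, 10 with 1000 bp, 8 with the most upstream start of each gene (without Trl) and 8 with the stronger 2779 peaks (without Ibf2). Keeping peaks whose summit lay in the 5558 strongest regions of every replicate left 7 members, without Ibf2 and ZIPIC, against 26.5% of protein-coding genes. With each replicate in turn left out of this filter, 7 to 8 members remained, against 28.2% to 32.1% of protein-coding genes. The peaks were still those of the thresholded list, which was made from all replicates. Related genes with a peak numbered 19 to 24 over the same settings, and 22 to 23 when a replicate was left out of the filter. The share of all genes was 23.5% with the stronger peaks and 26.5% to 40.3% under the other settings.

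The median rank of the members' strongest promoter peaks, 1740 in the thresholded list, was 1207 in the lists of replicates 1 and 2 and 2527.5 in that of replicate 3, where ZIPIC has no region. These lists differ in length. As a mean over the other replicates it was 1951 to 2375.25. Motif matches at member summits numbered 26 with 100 bp either side, 12 with 50 bp and 35 with 150 bp. A shared start was found at 4 members within 500 bp and 7 within 2000 bp. A replicate region held the summit in 58 of 60 cases, and a replicate summit lay within 100 bp in 57. No paired analysis was possible because there is 1 group. Depth in reads is unknown, the signal scale is not stated, and a weak region such as that of Ibf1 cannot be read as absence of binding.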
